A study of Mus musculus with 9 samples.

Results

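The mRNAs of translation initiation and elongation factors were examined in ribosome-bound RNA of astrocyte endfeet, the process ends that astrocytes apply to brain vessels. Members were all protein-coding genes whose symbol starts with Eif or Eef followed by a digit, which gave 68 genes of 22092. Astrocyte ribosomes were recovered by TRAP (translating ribosome affinity purification), in which a GFP-tagged ribosomal protein, L10a, is immunoprecipitated with the mRNAs on its ribosomes. All mice were of the strain Aldh1L1 JD130 with the genotype tg:Aldh1L1-L10aGFP, 2 months old, so that whole astrocyte and endfeet samples carried the same transgene, driven by the promoter of Aldh1l1. The 3 whole astrocyte TRAP libraries were made from whole brain, each from a single brain without its choroid plexus, and the 6 endfeet TRAP libraries from purified brain vessels pooled from several mice. No group was treated. The comparison asked which ribosome-bound mRNAs were more or less abundant in endfeet than in astrocytes as a whole.

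Protein synthesis starts when eIF2 brings the initiator tRNA to the small ribosomal subunit, eIF3 holds that subunit together with eIF1 and eIF1A, and the eIF4 factors load it onto the capped mRNA. Elongation factor eEF1 then delivers aminoacyl-tRNAs and eEF2 moves the ribosome along the message. The amount of active eIF2 and of free eIF4E, the cap-binding protein, is a point of control: kinases of eIF2 and the eIF4E-binding proteins (4E-BPs) lower initiation. Many mRNAs of the translation apparatus, those of Eef1a1 and Eef2 among them, start with a run of pyrimidines (a 5′ terminal oligopyrimidine tract) through which the mTOR pathway controls their translation.

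Gene totals were 35984144 to 43521208 counts in whole astrocyte libraries and 2319495 to 13450588 in endfeet libraries, the smallest being endfeet library 6. Levels are given as CPM (counts scaled to library size, after TMM correction of that size). Scaled to the gene totals without that correction, 3 counts correspond to 0.0689 to 0.0834 CPM in whole astrocyte and 0.223 to 1.29 CPM in endfeet libraries. These floors are thus only near the scale of the levels. Markers of astrocytes, 8 genes, summed to 22058 to 24110 CPM in whole astrocyte and 9507 to 29413 CPM in endfeet libraries. Of these 8 genes, 1 passed the test as higher and 3 as lower. Vessel cell markers accompanied the endfeet: the 8 endothelial markers summed to 5.99 to 6.93 CPM in whole astrocyte and to 2388 to 3685 CPM in endfeet libraries, and all 8 endothelial, 8 mural and 6 fibroblast markers were higher. The 5 ependymal and choroid plexus markers reached 60.5 to 1423 CPM against 6562 to 87013 CPM, with the maximum in endfeet library 1. Neuronal markers, 9 genes, went the other way, from 3709 to 4273 CPM to 1082 to 2083 CPM, and 3 of them passed the test. No marker of these lists was at 0 in all libraries, and the part of these cells in the results below was not tested. With bulk libraries, fewer cells of a type and less RNA per cell cannot be told apart.

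Endfeet TRAP held more mRNA of 7 members and less of 15. The higher ones were Eif4ebp2, Eif3a, Eif4b, Eef2, Eef1a1, Eef1b2 and Eif2ak2, and the lower ones included the start codon factors Eif1, Eif1b, Eif1ax and Eif5, the helicase Eif4a2 and the second eEF1A gene, Eef1a2. Of 66 members tested (Eif4e1b and Eef1akmt3 were too low), 7 (10.6%) passed as higher, where 20.7% of all 14427 genes tested did, and 15 (22.7%) as lower, where 13.9% did (edgeR quasi-likelihood test, Benjamini-Hochberg adjusted p of at most 0.05). The other 44 did not pass. Without whole astrocyte library 1, 2 or 3 the higher members were 5, 5 and 6 (13.2%, 12.6% and 13.1% of all genes) and the lower ones 8, 7 and 8 (7.89%, 8.06% and 8.19% of all genes), so that calls over all genes fell too, from 4997 to 3130, 3071 and 3160. Eef1a2, Eef1d, Eif2a, Eif2ak1, Eif2s2 and Eif5 passed in none of these 3 analyses. The median log2 fold change, endfeet over whole astrocyte TRAP, was -0.53 over the 66 members and 0.10 over all genes tested.

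Every endfeet library lay above every whole astrocyte library in 7 of the 66 members (10.6%), against 18.9% of all genes tested, and these were the 7 called higher. All 6 endfeet libraries lay below the 3 whole astrocyte libraries in 25 members (37.9%), against 23.8% of all genes, and 10 of those 25 did not pass the test. Endfeet libraries varied more: the median coefficient of variation of a member was 47.2% among the 6 endfeet libraries and 7.39% among the 3 whole astrocyte libraries, and over all genes tested 64.0% and 9.75%. Endfeet libraries 1 to 3 belong to another library series than the remaining 6 libraries, as judged from the numbers the libraries carry. Within the series that holds both groups, 6 members were higher (19.5% of all genes) and 18 lower (19.7% of all genes). With the series as a covariate over all 9 libraries, 6 members were higher (18.6% of all genes) and 10 lower (11.6% of all genes), and Eif2ak2, Eef1akmt2, Eef1e1, Eif2a, Eif2s2 and Eif5 no longer passed.

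**Figure D1:**
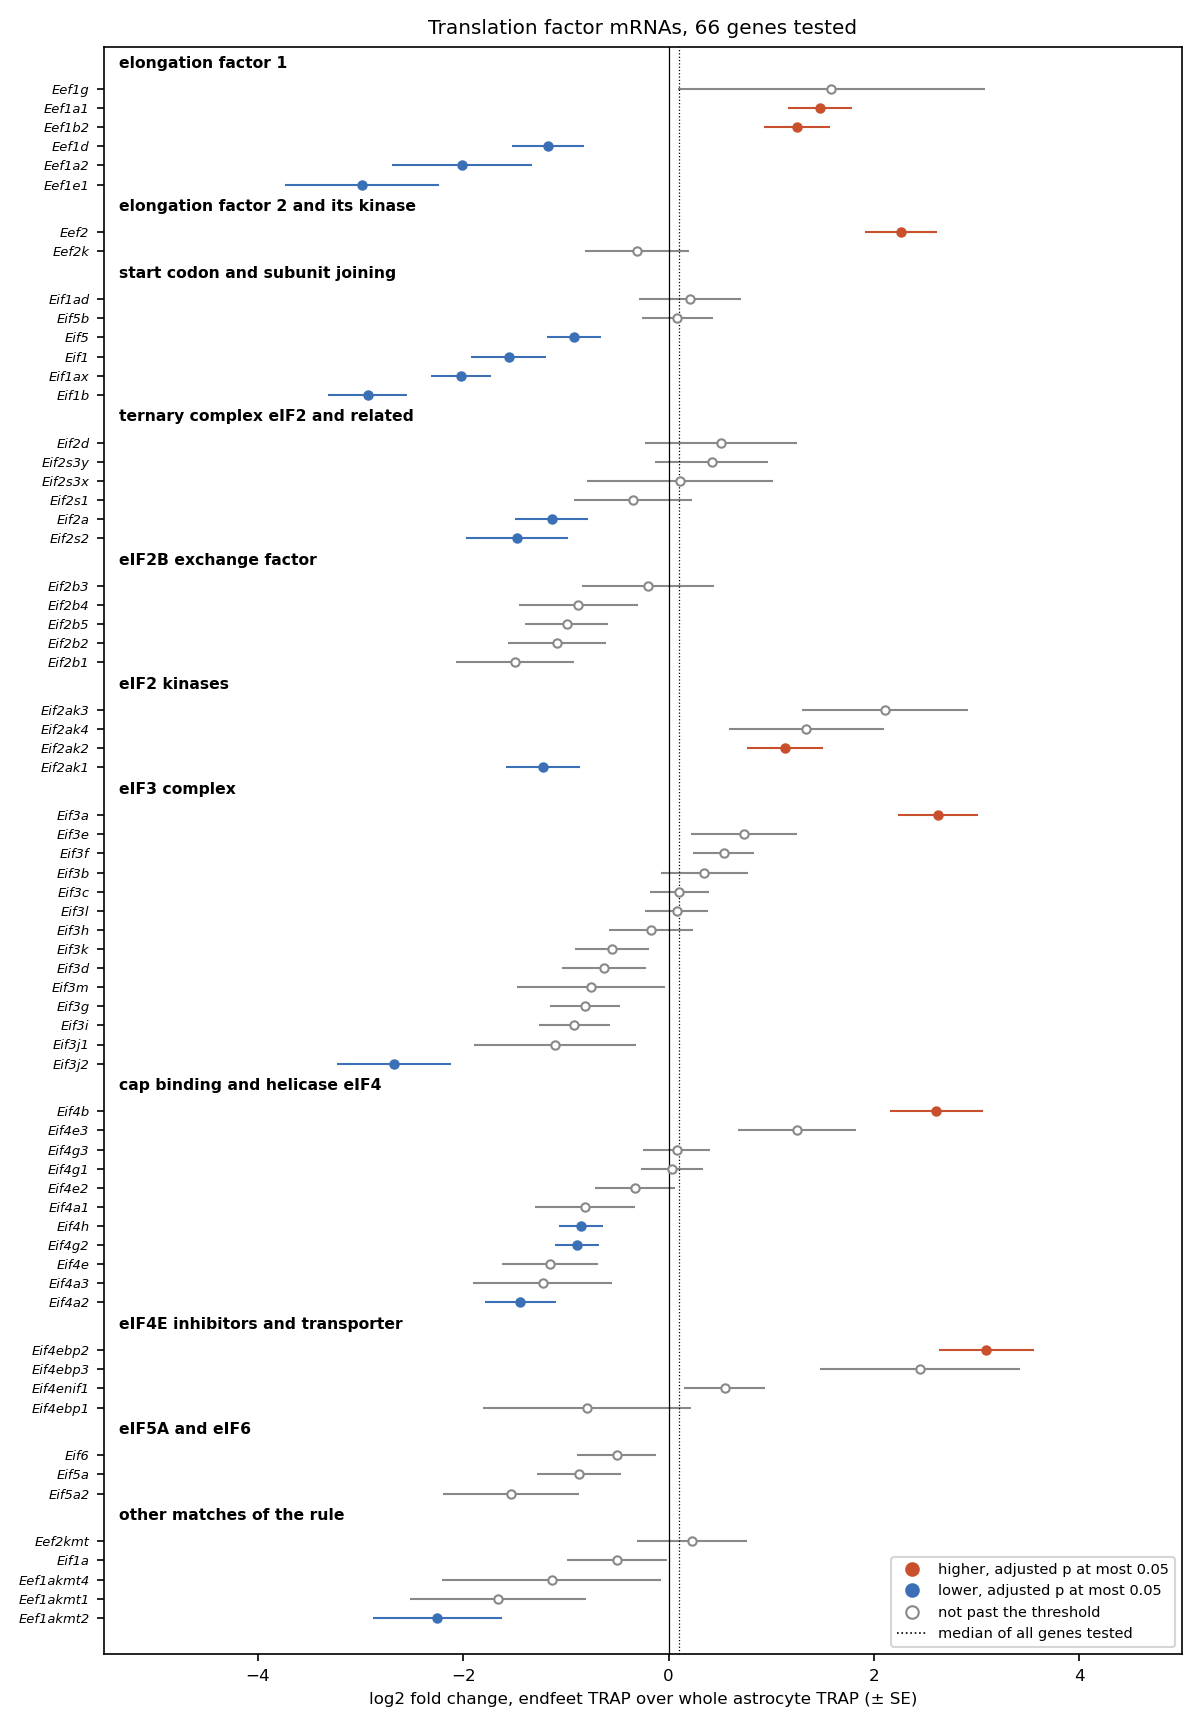
Log2 fold change of endfeet TRAP over whole astrocyte TRAP for the 66 members tested, grouped by role, with bars of 1 standard error. Filled points passed the test, the dotted line marks the median of all genes tested (0.10), and the 7 higher members are spread over 6 of the role groups.

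The summed level of all 68 members was 7323, 7359 and 7424 CPM in whole astrocyte libraries, and in endfeet libraries it ran from 5884 to 10770 CPM with a median of 6395 CPM. Of the 6 endfeet libraries 5 lay below every whole astrocyte library, at 6926 CPM or less, and library 6 alone lay above them. The 7 higher members, whose share has to be larger in endfeet because they were called on these values, supplied 8.01% to 8.27% of it in whole astrocyte libraries and 33.7% to 54.9% in endfeet libraries, where the maximum belonged to library 6. Eif4g2 encodes an eIF4G relative that lacks the eIF4E-binding part. By the reads counted, it was the most abundant member per kilobase in whole astrocytes. It held 31.6% to 34.0% of the sum there and 10.9% to 24.0% in endfeet. Members with near-identical copies, such as Eef1a1, lost reads that aligned more than once, so that the sum and this order understate them. The level of Eif4g2 itself was 2488, 2326 and 2464 CPM in whole astrocyte libraries and 1064 to 1571 CPM (median 1307) in endfeet libraries. These ranges did not overlap, and the log2 fold change was -0.89 ± 0.21 (SE, edgeR adjusted p = 0.00552).

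Per kilobase of transcript, the order of the members by the reads counted changed between the groups. Members with near-identical copies are understated in both orders. In whole astrocytes Eif4g2 (303 CPM per kb), Eif1b (229), Eif4h (138), Eif3i (112) and Eif3k (103) led on mean level. In endfeet Eef2 (177 CPM per kb), Eif3a (174), Eif4g2 (163), Eef1a1 (136), Eif4b (121) and Eif4ebp2 (110) led, and the ranges of these 6 over the endfeet libraries are wide enough that their order among themselves is not resolved. Eif4ebp2 stood 43rd and Eif4b 36th in whole astrocytes.

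Elongation factors. Eef2, the GTPase that translocates the ribosome (chr10:81176631-81182498), was at 100, 119 and 122 CPM in whole astrocyte libraries and at 382 to 985 CPM (median 454) in endfeet libraries. All endfeet libraries were more than 3 times as high as the highest whole astrocyte library. The log2 fold change was 2.26 ± 0.35 (edgeR adjusted p = 0.00028). Eef2k, the kinase that inactivates eEF2, gave 39.1 to 52.7 CPM and 14.4 to 74.3 CPM, ranges that overlapped (adjusted p = 0.673).

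Eef1a1, which encodes the general form of eEF1A (chr9:78478449-78489151), was at 88.8, 92.7 and 80.9 CPM in whole astrocyte and 178 to 423 CPM (median 215) in endfeet libraries. Its log2 fold change was 1.47 ± 0.32 (adjusted p = 0.00296). The groups were apart, but the level itself is an underestimate of unknown size, since reads that aligned more than once were removed and 68.9% of the 40-base windows of its transcript occur in other annotated genes, mostly copies of Eef1a1. Eef1a2 (chr2:181147653-181157014), the form known from neurons and muscle, moved the other way, from 25.5, 25.9 and 29.4 CPM to 2.74 to 19.9 CPM with a median of 4.39 CPM. The log2 fold change was -2.01 ± 0.68 (adjusted p = 0.0362). The value of 19.9 CPM came from endfeet library 1, which had the highest choroid plexus markers, and the other 5 libraries were at 5.31 CPM or less. Between the groups Eef1a2 and the summed neuronal markers were both lower in endfeet, and a link between them was not tested. Library 6 had the lowest Eef1a2 (2.74 CPM, from 6 counts) and the highest neuronal sum (2083 CPM). Library 1, with the highest Eef1a2, had a neuronal sum of 1214 CPM. The remaining endfeet libraries had 3.33 to 5.31 CPM of Eef1a2 and neuronal sums of 1082 to 1557 CPM. The fall of Eef1a2 kept its sign in all 18 alternative analyses but passed in 10.

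The nucleotide exchange complex of eEF1A did not change as a unit. Eef1b2, a catalytic subunit, was at 60.5, 65.4 and 78.2 CPM in whole astrocyte and 113 to 265 CPM (median 148) in endfeet libraries, a log2 fold change of 1.25 ± 0.32 (adjusted p = 0.00857). Without whole astrocyte library 1 or 2 its adjusted p was 0.0527 or 0.0536. Eef1d, the other catalytic subunit, fell from 62.6, 75.001 and 77.2 CPM to 21.8 to 41.4 CPM (median 32.6), a log2 fold change of -1.18 ± 0.35 (adjusted p = 0.0191). The groups did not overlap for either subunit. Eef1g, the structural subunit, was below 2.1 CPM in 8 libraries and at 32.4 CPM in endfeet library 6, and 66.4% of its windows are shared with other genes, so that no direction is given. Eef1e1, a scaffold protein of the aminoacyl-tRNA synthetase complex, fell from 67.8, 63.7 and 55.7 CPM to 0.188 to 15.5 CPM (median 8.13), a log2 fold change of -2.99 ± 0.75 (adjusted p = 0.00777). This and the fall of Eif1b, given next, were the largest of the members tested and lay within 1 standard error of each other, with Eef1e1 first in 13 and Eif1b in 5 of the 18 alternatives.

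Factors of start codon selection. Of 6 genes in this group 4 were lower, where 13.9% of all genes were, and none was higher (median log2 fold change -1.24). With Eif1a, which the grouping left among the remaining genes, these were 4 of 7 with a median of -0.92. Eif1 and its close relative Eif1b encode the factor that keeps the scanning ribosome from stopping at wrong codons. Eif1b (chr9:120492232-120495330) was at 220, 241 and 249 CPM in whole astrocyte and at 14.2 to 48.6 CPM (median 29.6) in endfeet libraries, which gave the smallest adjusted p of all members (7.54e-05, log2 fold change -2.93 ± 0.38). Eif1 was at 77.3, 82.5 and 78.1 CPM against 13.5 to 36.0 CPM (median 28.6), with a log2 fold change of -1.56 ± 0.37 (adjusted p = 0.00525). The level of Eif1 is uncertain, with 34.5% of its windows shared with other genes. Eif1ax, the X-linked gene of eIF1A (chrX:159372178-159389928), was at 452, 462 and 432 CPM against 73.0 to 181 CPM (median 94.3). The distance between the groups was large relative to the spread in either, at a log2 fold change of -2.02 ± 0.30 (adjusted p = 0.000178). Eif1a, an autosomal gene of eIF1A, gave 117 to 119 CPM and 32.3 to 204 CPM and did not pass (log2 fold change -0.50 ± 0.48, adjusted p = 0.45).

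Eif5, which makes eIF2 hydrolyse its GTP at the start codon, was at 252, 251 and 246 CPM in whole astrocyte and 89.6 to 186 CPM (median 136) in endfeet libraries, with a log2 fold change of -0.92 ± 0.27 (adjusted p = 0.017). Eif5b, which joins the ribosomal subunits, overlapped between groups at 175 to 202 CPM and 109 to 325 CPM (adjusted p = 0.871). Eif1ad, a gene with an eIF1A-like domain, was at 40.7 to 46.6 CPM and 27.7 to 126 CPM (adjusted p = 0.774).

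The eIF2 complex, its exchange factor and its kinases. Eif2s2, the beta subunit of eIF2, fell from 51.4, 57.2 and 51.0 CPM to 5.94 to 31.2 CPM (median 20.7), a log2 fold change of -1.48 ± 0.50 (adjusted p = 0.0353). The level of Eif2s2 is uncertain, with 30.1% of its windows shared. Eif2s1, the alpha subunit on which the kinases act, gave 21.7 to 31.5 CPM and 11.4 to 50.7 CPM (adjusted p = 0.672). Its value of 50.7 CPM came from endfeet library 1, and the other 5 endfeet libraries were at 20.5 CPM or less, below all whole astrocyte libraries. The gamma subunit is encoded by Eif2s3x and Eif2s3y, for which the groups overlapped at 0.322 to 1.88 CPM and 18.8 to 96.6 CPM over all libraries. The level of Eif2s3x is uncertain, with 36.5% of its windows shared. Eif2a, a separate initiator tRNA-binding factor, fell from 137, 127 and 132 CPM to 32.9 to 84.6 CPM (log2 fold change -1.14 ± 0.35, adjusted p = 0.0238). Eif2d, which can deliver tRNA without GTP, was at 20.3 to 23.9 CPM and 5.75 to 82.2 CPM (adjusted p = 0.625).

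Of the 5 subunits of eIF2B, which recharges eIF2 with GTP, none passed, while all 5 had a log2 fold change below 0 (-1.50 to -0.20). Over all genes tested, 20.7% passed as higher and 13.9% as lower. Eif2b5, the catalytic subunit, gave 56.7, 69.4 and 71.4 CPM against 18.4 to 50.2 CPM. The groups did not overlap, and the difference of -0.99 ± 0.41 on the log2 scale did not pass (adjusted p = 0.0753). Eif2b1 did not overlap either, at 57.0 to 58.7 CPM against 4.50 to 49.8 CPM (adjusted p = 0.0604).

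The 4 kinases of eIF2 went in different directions. Eif2ak2 (PKR), which responds to double-stranded RNA, was at 39.1, 34.4 and 28.5 CPM in whole astrocyte and 45.7 to 103 CPM (median 73.3) in endfeet libraries. The nearest libraries were at 39.1 and 45.7 CPM, and the log2 fold change of 1.13 ± 0.37 (adjusted p = 0.029) passed in 8 of 18 alternatives. The 8 microglia and macrophage markers summed to 18.8 to 23.0 CPM in whole astrocyte and 222 to 347 CPM in endfeet libraries, and 6 of them passed as higher, as did all vessel cell markers. Whether these cells contributed to the level of Eif2ak2, or of any other member, was not tested. Eif2ak1 (HRI), which responds to a lack of heme, fell from 118, 122 and 144 CPM to 24.6 to 85.03 CPM, a log2 fold change of -1.22 ± 0.36 (adjusted p = 0.0185). Eif2ak3 (PERK), the kinase of endoplasmic reticulum stress, was at 4.14 to 4.32 CPM against 3.70 to 35.2 CPM, with 1 endfeet library below the whole astrocyte libraries (adjusted p = 0.0597). Eif2ak4 (GCN2), the amino acid sensor, was at 6.54 to 8.31 CPM against 5.80 to 50.2 CPM (adjusted p = 0.188).

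The eIF3 complex. Eif3a, the large scaffold subunit of eIF3 (chr19:60761117-60790658), was at 151, 144 and 138 CPM in whole astrocyte libraries. In endfeet libraries it was at 547 to 1756 CPM (median 731). The lowest endfeet library exceeded the highest whole astrocyte library more than 3 times over, and the log2 fold change was 2.62 ± 0.39 (adjusted p = 0.000205). No window of its transcript is shared with another gene. Of the other 13 eIF3 genes none was higher and only Eif3j2 was lower, where 20.7% and 13.9% of all genes tested were. The ratio of Eif3a to the median of these 13, per kilobase, was 0.819 to 0.839 in whole astrocyte and 3.15 to 7.70 in endfeet libraries. Of the core subunits, Eif3c was at 108 to 119 CPM and 94.1 to 189 CPM (adjusted p = 0.81), and Eif3b at 36.5 to 40.2 CPM and 22.4 to 83.5 CPM (adjusted p = 0.554). Eif3i came nearest to passing among the rest, at 108 to 136 CPM against 49.1 to 125 CPM (adjusted p = 0.0536), followed by Eif3g at 84.8 to 102 CPM against 30.3 to 84.4 CPM (adjusted p = 0.0814). Eif3f and Eif3e leaned the other way, with log2 fold changes of 0.53 ± 0.30 and 0.73 ± 0.51 that did not pass. Eif3j2 fell from 49.1, 42.1 and 35.7 CPM to 1.69 to 10.7 CPM (log2 fold change -2.68 ± 0.56, adjusted p = 0.00243), but 93.6% of its windows occur in other genes, above all in Eif3j1, so that its level rests on a small part of the transcript.

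**Figure D2:**
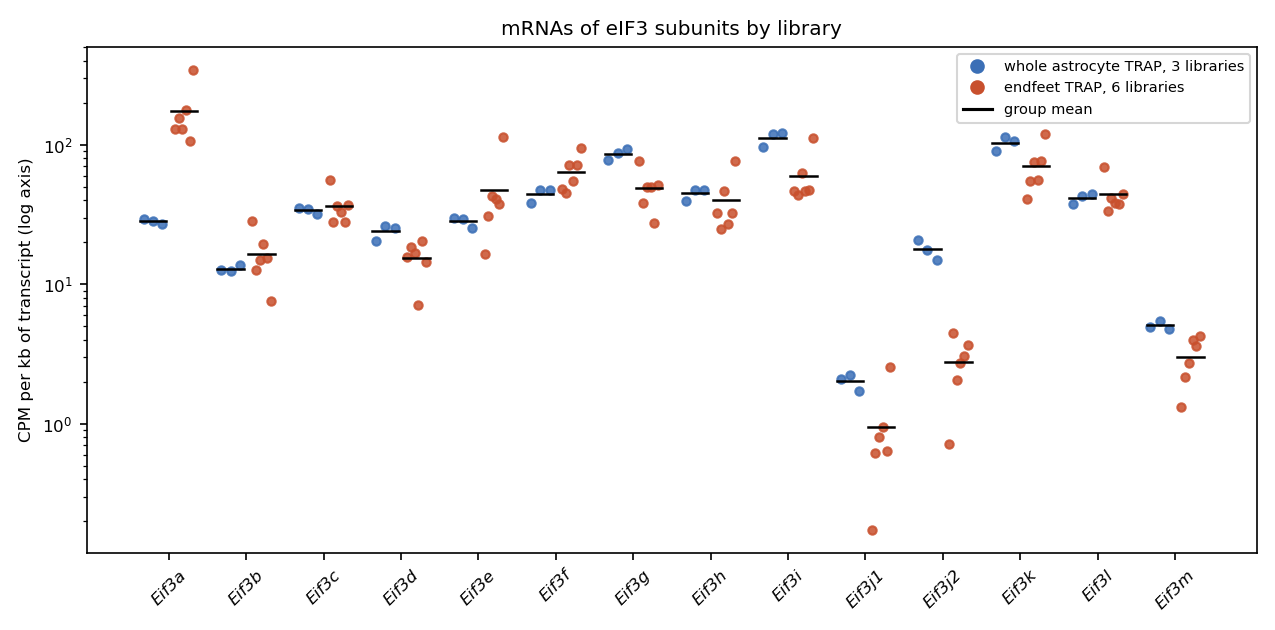
Levels of the mRNAs of 14 eIF3 genes in CPM per kilobase of transcript on a log axis, with a point for each library and a line at the group mean. Eif3a has a mean of 28.1 in whole astrocyte and 174 in endfeet TRAP, while most other subunits overlap between groups.

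Cap binding, helicase and scaffold factors of eIF4. Eif4b, a cofactor of the helicase eIF4A (chr15:102073773-102097173), was at 74.3, 77.2 and 77.1 CPM in whole astrocyte and 268 to 1068 CPM (median 380) in endfeet libraries. Every endfeet library was at least 3 times as high as every whole astrocyte library, at a log2 fold change of 2.61 ± 0.45 (adjusted p = 0.000702). Eif4h, which acts on the same helicase, went the other way, from 303, 337 and 341 CPM to 142 to 202 CPM (median 185), with a log2 fold change of -0.85 ± 0.22 (adjusted p = 0.00865). The helicase gene Eif4a2 (chr16:23107444-23114136) fell from 189, 193 and 174 CPM to 38.8 to 127 CPM (median 54.4), a log2 fold change of -1.44 ± 0.35 (adjusted p = 0.00615). Eif4a1, the other helicase gene, was at 25.4 to 27.2 CPM against 10.7 to 24.4 CPM and did not pass (adjusted p = 0.211). Its level is uncertain, with 35.7% of windows shared and a retained-intron transcript as the most counted, while the most counted protein-coding transcript gave a log2 fold change of -0.98 ± 0.49 (adjusted p = 0.141).

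Among cap-binding genes, Eif4e was at 44.0 to 48.4 CPM in whole astrocyte and 6.40 to 29.3 CPM in endfeet libraries without overlap, and its log2 fold change of -1.16 ± 0.47 did not pass (adjusted p = 0.0724). Eif4e3, a relative of eIF4E, was at 14.4 to 15.9 CPM against 7.77 to 55.3 CPM (adjusted p = 0.11), with endfeet library 6 alone below the whole astrocyte libraries. The scaffold genes Eif4g1 and Eif4g3 gave log2 fold changes of 0.03 ± 0.30 and 0.08 ± 0.32. Eif4e2, a cap-binding repressor, overlapped at 58.6 to 64.5 CPM and 24.9 to 82.4 CPM (adjusted p = 0.55), and Eif4a3, the helicase of the exon junction complex, was at 10.4 to 11.96 CPM against 2.64 to 9.36 CPM (adjusted p = 0.179). Eif4e1b, an oocyte form, had 0 counts in all 9 libraries. Without TMM correction this allows up to 0.0689 CPM in the deepest and 1.29 CPM in the shallowest library.

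The 4E-BPs, inhibitors of eIF4E, were unequal in level. Eif4ebp2, the 4E-BP known as the main one of brain (chr10:61428491-61452661), was at 76.8, 75.7 and 70.4 CPM in whole astrocyte and at 328 to 1374 CPM (median 555) in endfeet libraries. This was the largest rise of all members tested, at a log2 fold change of 3.09 ± 0.46 (adjusted p = 0.000207), and no window of its transcript is shared. Eif4ebp1 remained below 9 CPM in all libraries, at 6.49 to 8.25 CPM and 0 to 7.81 CPM (adjusted p = 0.575). Eif4ebp3 was at 1.93 to 2.22 CPM against 1.49 to 26.5 CPM and did not pass (adjusted p = 0.0668), and 65.96% of its windows are shared with an overlapping readthrough gene. Eif4enif1, which carries eIF4E into the nucleus, was at 36.8 to 44.97 CPM and 38.9 to 103 CPM (adjusted p = 0.303).

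**Figure D3:**
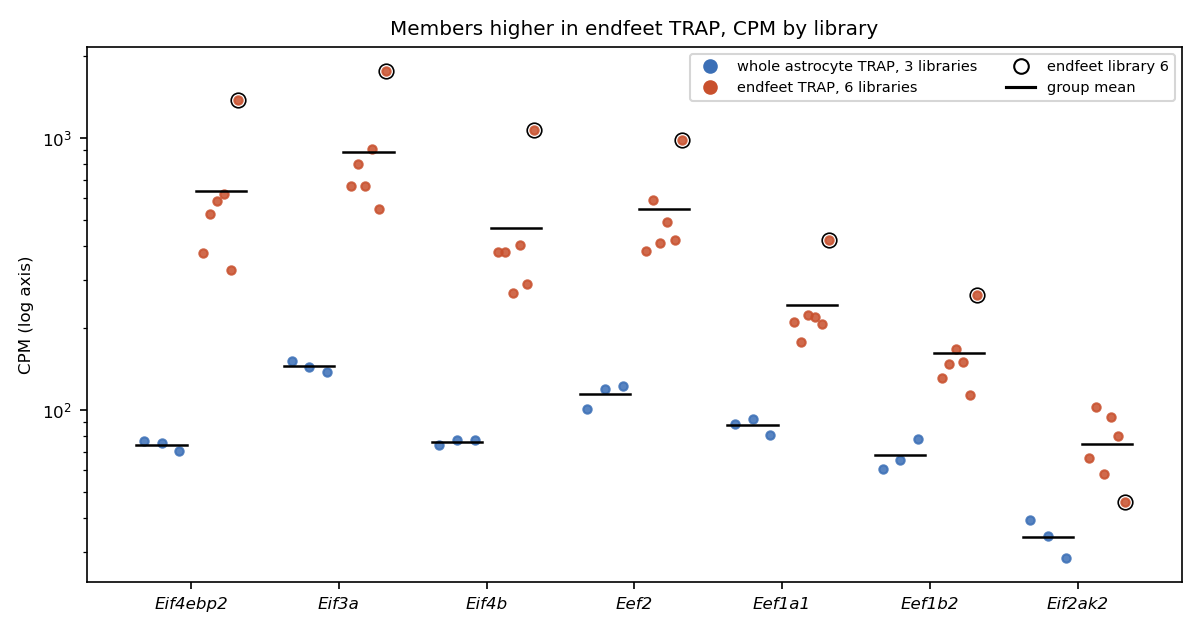
CPM of the 7 higher members in each library on a log axis, with a line at the group mean and endfeet library 6 circled. Library 6 is the highest in the first 6 of these genes and the lowest in Eif2ak2, and the other endfeet libraries also lie above all whole astrocyte libraries.

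Endfeet library 6, the shallowest, was the highest endfeet library in 6 of the 7 higher members and in 27 of the 66 members tested. Without it, the log2 fold changes were 2.72 for Eif4ebp2, 2.32 for Eif3a, 2.18 for Eif4b, 2.01 for Eef2, 1.25 for Eef1a1 and 1.06 for Eef1b2. All 7 members remained past the threshold, and Eif2ak3 and Eif4e3 joined them, while the lower members rose in number from 15 to 22 (23.2% of all genes were then higher and 16.8% lower). Eef1a1, Eef2, Eif3a, Eif4b and Eif4ebp2 passed as higher in all 18 alternative analyses.

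The remaining factors. Eif5a, which helps ribosomes through stalling stretches and carries the amino acid hypusine, was at 55.7 to 57.8 CPM against 16.4 to 48.9 CPM, with a log2 fold change of -0.87 ± 0.41 (adjusted p = 0.116). Eif5a2, its close relative, was at 55.0 to 64.0 CPM against 0.457 to 26.6 CPM (adjusted p = 0.0898). In both genes the groups were apart without passing the test. Eif6, which keeps the large subunit free of the small one, overlapped at 33.8 to 41.7 CPM and 21.9 to 38.6 CPM (adjusted p = 0.329). The rule also took methyltransferases of the elongation factors. Eef1akmt2, which methylates a lysine of eEF1A, fell from 59.8, 59.8 and 52.5 CPM to 3.61 to 34.6 CPM (median 7.85), a log2 fold change of -2.25 ± 0.63 (adjusted p = 0.0142). It did not pass with the library series as covariate (-1.70, adjusted p = 0.0788), in the shared series alone (-1.83, adjusted p = 0.0515) or without whole astrocyte library 1 or 2 (adjusted p = 0.0599 and 0.0547). Eef1akmt1, Eef1akmt4 and Eef2kmt did not pass, and Eef1akmt3 stayed below 5 CPM.

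**Figure D4:**
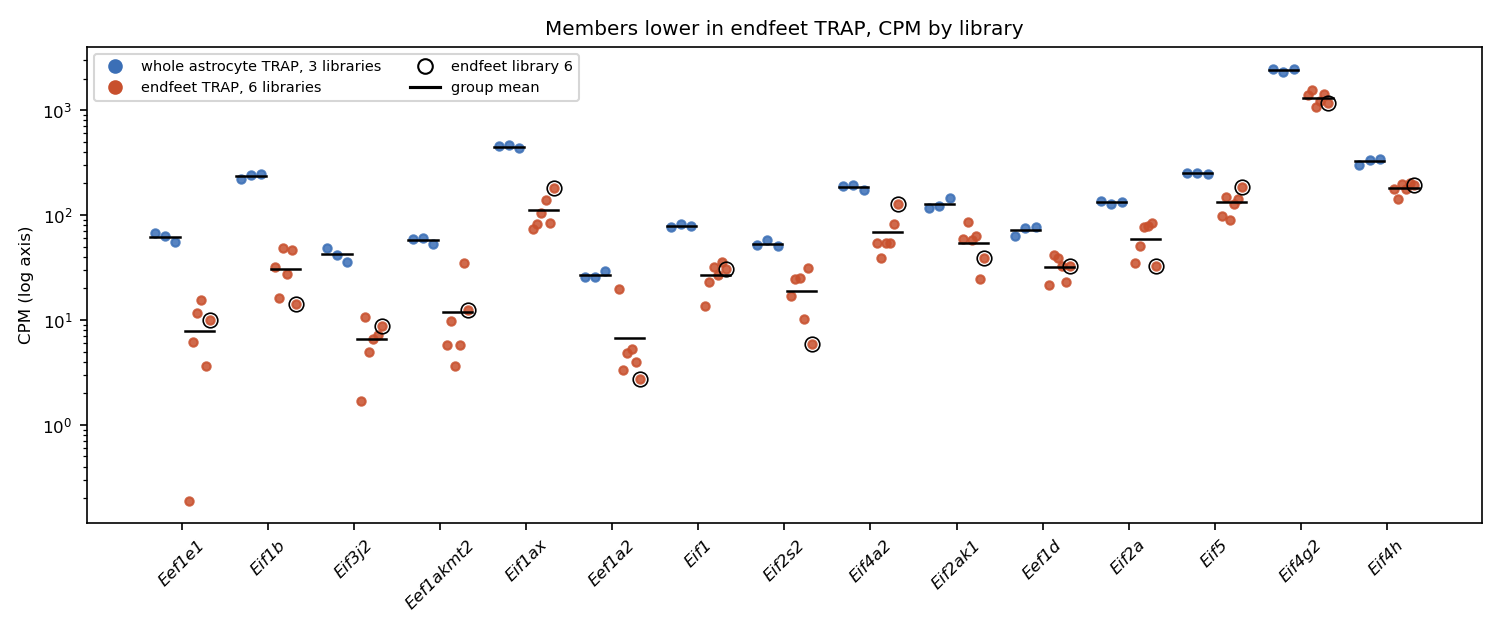
CPM of the 15 lower members in each library on a log axis, with a line at the group mean and endfeet library 6 circled. In all 15 genes the 6 endfeet libraries lie below the 3 whole astrocyte libraries, and Eef1a2 has its nearest value, 19.9 CPM, in endfeet library 1.

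Related genes that can stand in for each other were then compared by the log2 ratio of their CPM + 1 within each library, with a two-sided exact permutation test over the 84 ways to assign the 9 libraries to the groups (smallest possible p = 0.0119) and Benjamini-Hochberg adjustment over 6 pairs. Eef1a2 to Eef1a1 was -1.66 ± 0.20 (SD, n = 3) in whole astrocyte and -5.22 ± 1.11 (n = 6) in endfeet libraries, lower in 6 of 6 (exact p = 0.0119, adjusted p = 0.0238). Eif4ebp2 to Eif4ebp1 was 3.16 ± 0.21 and 7.05 ± 1.15, higher in 6 of 6 (exact p = 0.0119, adjusted p = 0.0238). Eef1a2, Eef1a1 and Eif4ebp2 were already called on the same counts, so that their ratios describe those calls and are no separate support. For Eef1a2 to Eef1a1 the separation in 6 of 6 was fixed in advance by that of the genes, and for Eif4ebp2 to Eif4ebp1 by the ranges of the 2 genes. Eif4e3 to Eif4e changed sign, from -1.58 ± 0.14 to 0.65 ± 0.67, and was higher in 6 of 6 (exact p = 0.0119, adjusted p = 0.0238), although neither gene passed on its own. Here Eif4e lay below all whole astrocyte libraries in 6 endfeet libraries and Eif4e3 above them in 5. In those 5 the higher ratio thus followed from the genes and is no separate support. These 3 ratios kept their direction with only the endfeet libraries of the whole astrocyte series, at differences of -4.11, 3.42 and 2.16, where 3 against 3 libraries allow an exact p of no less than 0.1 (adjusted p = 0.2 in each).

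The other 3 pairs did not separate. Eif4a2 to Eif4a1 was 2.78 ± 0.09 in whole astrocyte and 2.09 ± 0.79 in endfeet libraries (exact p = 0.202, adjusted p = 0.304). Eif5a2 to Eif5a was 0.05 ± 0.13 and -0.95 ± 2.07, with a value of -5.10 in endfeet library 6 (exact p = 0.524, adjusted p = 0.629). Eif4g3 to Eif4g1 was 1.08 ± 0.11 and 1.08 ± 0.61 (exact p = 1, adjusted p = 1).

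**Figure D5:**
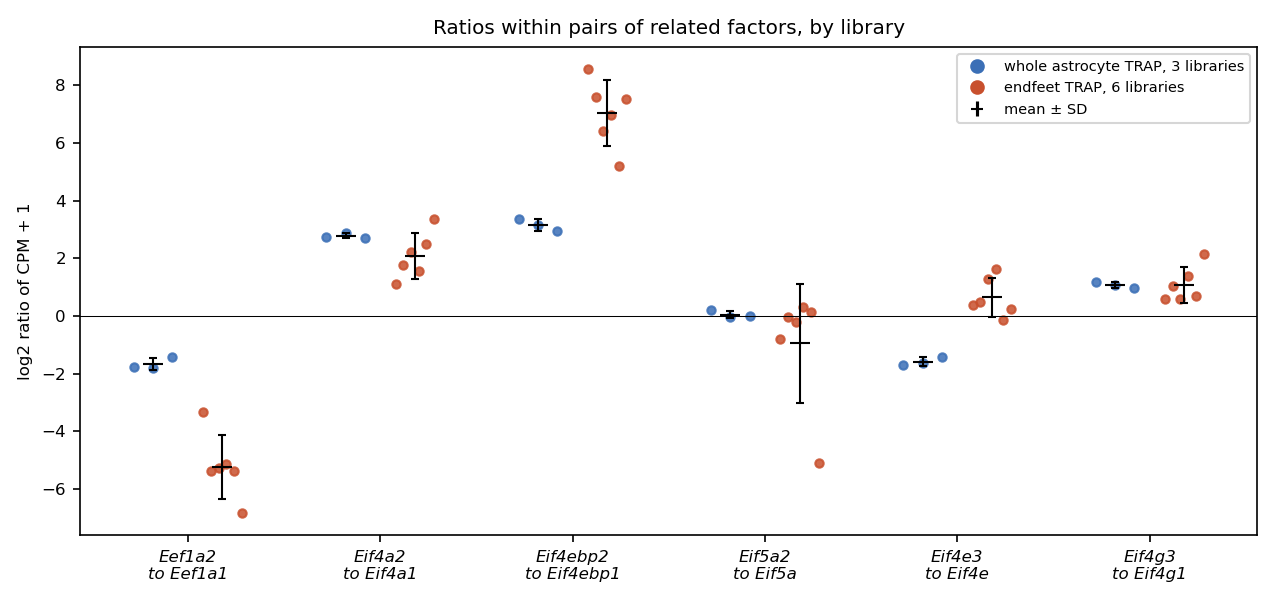
Log2 ratios of CPM + 1 within 6 pairs of related factors, with a point for each library and the mean ± SD of each group. Endfeet and whole astrocyte libraries do not overlap for Eef1a2 to Eef1a1, Eif4ebp2 to Eif4ebp1 and Eif4e3 to Eif4e.

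The 5′ ends of the changed members were inspected for pyrimidine runs, since Eef1a1 and Eef2 are known examples of such mRNAs. A run was a C followed by at least 6 bases that are each C or T, within the first 100 bases of the annotated transcript, on the transcript strand only. Such a run occurs in 35.7% of the 14232 protein-coding genes tested, in 32 of the 66 members, in 4 of the 7 higher members (Eef1a1, Eef2, Eif3a and Eif4b) and in 9 of the 15 lower ones. Runs were thus found on both sides, and they belong to annotated transcripts, whose ends were not measured here. The 30 bases around the first run are given for the 4 higher members, for Pabpc1, the poly(A)-binding protein gene and a known example, and for Eef1a2, which fell. All are from GENCODE M21 (mm10), lie in the 5′ untranslated part of a single exon, and have the run in capitals. Only in Pabpc1 does the run start at base 1 of the annotated transcript. It starts at base 54 in Eef1a1, 16 in Eef2, 53 in Eif3a, 11 in Eif4b and 17 in Eef1a2, so that these are not terminal as annotated.
Eef1a1 (chr9:78481653-78481682, minus strand): ccttggacgttCTTTTTCgcaacgggtttg
Eef2 (chr10:81176635-81176664, plus strand): acgtcagcggtCTCTTCCgccgcagccgcc
Eif3a (chr19:60790573-60790602, minus strand): tcgcgctagttCCCCTCCgccttctctccc
Eif4b (chr15:102073773-102073802, plus strand): cgccgcgccaCCCCCTCgcgctgctttacg
Pabpc1 (chr15:36608944-36608973, minus strand): CCCCTTCTCCCCggcggttagtgctgagag
Eef1a2 (chr2:181156979-181157008, minus strand): ctcactggttCTCTCCCTCgctccggtgca
No run was found in Eif4ebp2, Eef1b2 or Eif2ak2. Transcripts of the 7 higher members had a median length of 3854 bases (1794 to 5784), those of the 15 lower members 2542 bases (1035 to 7995), and those of all genes tested 3119 bases.

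Other genes of the translation pathway were taken from a list of 46, of which 45 could be tested. Of these 4 (Pabpc1, Mknk2, Ppp1r15b and Gcn1l1) were higher and 3 (Atf4, Pdcd4 and Tsfm) lower, against 20.7% and 13.9% of all genes, and the median log2 fold change was -0.45. The count of lower genes was unstable: by edgeR it was 0 without whole astrocyte library 1, 2 or 3 (3, 3 and 4 at an unadjusted p under 0.05), 12 without endfeet library 1, 1 without endfeet library 2 or 3 and 8 without endfeet library 6, and it was 6 by DESeq2.

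Pabpc1 had the largest rise of this list, from 28.5, 26.7 and 31.4 CPM to 186 to 1087 CPM (median 285), a log2 fold change of 3.85 ± 0.59 (edgeR adjusted p = 0.000269). Its 6 endfeet libraries were far above the whole astrocyte libraries, again with a maximum in library 6. Mknk2, a kinase that phosphorylates eIF4E, rose from 21.7, 21.4 and 19.5 CPM to 47.7 to 109 CPM (log2 fold change 1.81 ± 0.39, adjusted p = 0.00294). Pdcd4, which inhibits the helicase eIF4A, fell from 228, 217 and 208 CPM to 79.8 to 184 CPM (log2 fold change -0.89 ± 0.29, adjusted p = 0.0294).

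In the branch downstream of eIF2, Ppp1r15b, a subunit of the phosphatase that reverses eIF2 phosphorylation, rose from 64.1, 56.1 and 57.2 CPM to 123 to 348 CPM (log2 fold change 1.66 ± 0.37, adjusted p = 0.00354). Gcn1l1, the partner of the kinase GCN2, rose from 7.78, 9.05 and 8.43 CPM to 14.2 to 34.3 CPM (log2 fold change 1.53 ± 0.54, adjusted p = 0.0413). Atf4, a transcription factor that is translated when eIF2 is phosphorylated, fell from 208, 199 and 203 CPM to 33.8 to 151 CPM (log2 fold change -1.12 ± 0.38, adjusted p = 0.0356). In each of these genes the groups were apart. All 6 genes of termination and ribosome recycling, all 6 of factor modification and 7 of 8 mitochondrial translation factors did not pass. Over all genes tested, 20.7% passed as higher and 13.9% as lower. The median log2 fold changes of these classes were -0.77, -0.60 and -0.72, so that not passing does not mean an equal level. The exception among mitochondrial factors, the elongation factor gene Tsfm, was at 11.4 to 14.3 CPM against 0 to 4.11 CPM (log2 fold change -2.60 ± 0.94, adjusted p = 0.0467).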

How the data were processed

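Ribosome-bound RNA was sequenced from 3 whole astrocyte and 6 endfeet TRAP libraries. The authors amplified the RNA (NuGEN Ovation, which does not mark strand), filtered reads and aligned them with Bowtie to mm10, discarded reads with several alignments, and counted the others per Ensembl transcript with HTSeq-count (0.5.3 in the submitters' processing notes). The deposited values are raw counts per transcript, neither normalized nor pooled. This discard lowers the counts of genes with near-identical copies: 14 of the 68 members share at least 30% of their 40-base windows with other genes of GENCODE M21. Reads of overlapping genes on opposite strands cannot be told apart.

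Of 75466 transcripts 73164 were matched to 22092 genes of GENCODE M21. The transcript with the highest CPM summed over libraries stood for each gene. For 3 members (Eif4a1, Eif2d and Eif2s3y) it is not protein-coding. Groups were compared with edgeR 4.0.16 in R 4.3.3 (TMM, filterByExpr, glmQLFit, glmQLFTest, Benjamini-Hochberg over 14427 genes, threshold 0.05). SE is the absolute log2 fold change over the square root of F. Ratios used a pseudocount of 1 CPM and exact permutation. Scripts were tested on simulated counts, with a dispersion shared by both groups. There edgeR recovered 39% of the genes changed by 2 on the log2 scale and 80% of those changed by 4. The real groups differed in dispersion, so that these shares need not hold, and not passing does not mean no change. Python 3.11.15, numpy 2.4.6, pandas 2.3.3 and matplotlib were used.

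Members, gene lists and tests were chosen with earlier results of these data known. Every member could be named, and full statistics were given for members past the threshold and for 26 listed in the design whatever their values. Other translation genes were named when past the threshold. Alternatives were DESeq2 1.42.0 size factors and Wald test, limma 3.58.1 voom with a weight for each group, no filter beyond 1 count, summed transcripts, library series as covariate or alone, the replicate number as a block, a pseudocount of 0.1 CPM, and each library left out. The highest protein-coding transcript was added after the data were seen. Whether the vessel pools were separate purifications is not given in the sources used here, so that p-values measure the spread between these libraries.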

Additional observations from a re-analysis of the deposited data

Results flagged for a closer look

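In 12 of 40 sets of 6 endfeet values examined (34 named members and 6 ratios), the highest or lowest library stood apart by Dixon's ratio (gap over range, critical value 0.625), where chance gives about 1 in 20. In 9 of the 12 it was library 6, the shallowest, with the highest neuronal marker sum among endfeet libraries (2083 CPM). It was the highest for Eef1g (ratio 0.961), Eif4b (0.829), Eef1a1 (0.818), Eif4ebp2 (0.721), Eif3a (0.701), Eef2 (0.655) and Eef1b2 (0.647). It was the lowest for Eif5a2 (0.777) and for the ratio of Eif5a2 to Eif5a (0.793). Endfeet library 1, with choroid plexus markers at 87013 CPM, was the highest for Eef1a2 (0.850) and Eif2s1 (0.770). Without it their log2 fold changes were -2.73 (edgeR adjusted p = 0.000737) and -0.88 (adjusted p = 0.102). Endfeet library 5 was the highest for Eef1akmt2 (0.718). The causes were not tested.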

How the results depend on the processing

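Of 612 alternative values for 34 named members, 528 kept their direction and side of the threshold, 45 kept the direction and lost it, 27 kept the direction and gained it, and 12 reversed, none of a called member. The reversed log2 fold changes were those of Eef1g (-0.65 with voom, -1.12 with the replicate block, -1.15 without endfeet library 6), Eef2k (0.24 with the library series as covariate, 0.11 in the shared series alone) and Eif4g1 (-0.045 without filter, -0.096 with protein-coding transcripts, -0.23 and -0.36 with the series as covariate or alone, and -0.037, -0.12 and -0.021 without endfeet library 2, 4 and 5). With a library left out, Eef1g ranged from -1.15 to 1.90 and Eif4g1 from -0.12 to 0.13. Members higher ranged from 6 to 10 over tools and settings and from 5 to 9 with a library left out. Members lower were 28 with voom (31.1% of all genes), 18 with DESeq2's Wald test (13.9%), 10 with the series as covariate (11.6%), and 7 to 22 with a library left out (7.89% to 18.4% of all genes, with 8, 7 and 8 members without whole astrocyte library 1, 2 and 3). The members' median was -0.76 in the shared series alone, -0.87 with the replicate block, and -0.75 and -0.74 without endfeet library 6 and 5, and it ranged from -0.87 to -0.44 over all settings. The median of all genes moved as well, to -0.16 in the shared series and -0.22 with the block, so that the members' median minus that of all genes was -0.60 and -0.65, against -0.63 in the analysis reported, and it ran from -0.81 (without endfeet library 6) to -0.40 (voom) over all settings. Other translation genes lower were 6 with the Wald test, 20 with voom, 5 without filter, with summed transcripts, with protein-coding transcripts and with the block, 1 with the series as covariate, 11 in the shared series, and 0 to 12 with a library left out (by edgeR, 0 without whole astrocyte library 1, 2 or 3, where 3, 3 and 4 had an unadjusted p under 0.05).

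The ratios of Eef1a2 to Eef1a1, Eif4ebp2 to Eif4ebp1 and Eif4e3 to Eif4e lost the threshold in the shared series (-4.11, 3.42 and 2.16, adjusted p = 0.2 by exact permutation) and without a whole astrocyte library (adjusted p = 0.0714 in each case), where the smallest exact p is 0.1 and 0.0357. Over libraries left out they ranged from -3.93 to -3.23, 3.59 to 4.26 and 2.04 to 2.39. Eif4g3 to Eif4g1, with a difference of 0.00255, ranged from -0.21 to 0.10, and turned to -0.054 without whole astrocyte library 3, -0.058 without endfeet library 4 and -0.21 without endfeet library 6.

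Replicate numbers 1 to 3 occur in both groups but do not pair the libraries: same-numbered libraries correlated at -0.036, 0.017 and 0.038 in their deviations from the group means. With the replicate block 7 members were higher and 14 lower, of which 6 and 10 were shared with the unblocked calls, and 3 and 5 other translation genes were higher and lower. Numbers 4 to 6 occur in endfeet only, so that the blocked comparison rests on endfeet libraries 1 to 3. These belong to another library series than the whole astrocyte libraries, so that group and series cannot be told apart in it. The causes of these changes were not tested. The common dispersion was 0.725 among endfeet and 0.0141 among whole astrocyte libraries, and edgeR used a shared one, so that differences within the endfeet spread were not detectable. Floors cover counting error only, while SE and SD also hold the spread between libraries.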
